A study of Homo sapiens with 6 samples.

Results

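The nuclear genes of respiratory complex I were followed in LNCaP cells, a human prostate cancer line with luminal features. All genes of the deposited table whose symbol begins with NDUFA, NDUFB, NDUFC, NDUFS or NDUFV were taken, without the NDUFAF assembly factors, pseudogenes and hyphenated names, which gave 39 of 17297 genes. Of these, 37 encode subunits of the assembled complex. NDUFA4, which is now counted with complex IV, and NDUFA4L2, its paralog, carry the family name only. One pseudogene, NDUFV2P1, was left out by the rule.

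Both groups were LNCaP cells transduced with the pBabe-puromycin retroviral vector, which was empty in pBabe-vector and carried the wild-type cDNA of GNA13 in pBabe-Gα13. GNA13 encodes Gα13, the alpha subunit of a heterotrimeric G protein. Each group was 1 stable line, sampled as 3 biological replicates that were grown for 48 h in medium with 10% serum, and whether a line was a clone or a pool is not given in the sources used here. The values are read counts per gene, shown here as CPM (counts scaled to a common library size, the unit of the study) after TMM normalization. The question was whether mRNA of complex I subunits differed between the lines, since Gα13-regulated genes of the mitochondria are a subject of the study.

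Complex I is the first enzyme of the mitochondrial respiratory chain. It takes electrons from NADH, passes them along a chain of iron-sulfur clusters to ubiquinone, and pumps protons across the inner membrane. It has the shape of an L. The N module at the tip of the matrix arm oxidises NADH, the Q module below it reduces ubiquinone, and the membrane arm pumps protons. The membrane arm is divided here into a proximal and a distal part. The proximal part holds the NDUFC proteins and some of the NDUFA proteins, and the distal part holds the NDUFB proteins. The catalytic core of the matrix arm is encoded by NDUFV and NDUFS genes in the nucleus, the core of the membrane arm by mitochondrial DNA (mtDNA), and the remaining subunits are called supernumerary. Complex I is also a site where superoxide arises.

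Promoter sequences of 4 members are shown as examples. These genes were among those that differed between the lines once pairs of libraries were compared, NDUFS4 and NDUFA3 downwards and NDUFA12 and NDUFA9 upwards. Each is the 250 bases before the RefSeq transcription start in GRCh38.p14, 5′ to 3′ in the direction of the gene. The windows are chr5:53560389-53560638 (plus strand), chr19:54102605-54102854 (plus strand), chr12:95003698-95003947 (minus strand) and chr12:4648864-4649113 (plus strand). Capitals mark the motif of NRF1, a transcription factor known for driving respiratory chain genes, searched as GCGCANGCGC on both strands.
NDUFS4: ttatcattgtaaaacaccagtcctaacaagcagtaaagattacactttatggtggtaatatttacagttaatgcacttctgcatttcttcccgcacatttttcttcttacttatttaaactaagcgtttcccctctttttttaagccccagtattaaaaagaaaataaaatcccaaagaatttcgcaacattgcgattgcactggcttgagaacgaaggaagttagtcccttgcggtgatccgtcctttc
NDUFA3: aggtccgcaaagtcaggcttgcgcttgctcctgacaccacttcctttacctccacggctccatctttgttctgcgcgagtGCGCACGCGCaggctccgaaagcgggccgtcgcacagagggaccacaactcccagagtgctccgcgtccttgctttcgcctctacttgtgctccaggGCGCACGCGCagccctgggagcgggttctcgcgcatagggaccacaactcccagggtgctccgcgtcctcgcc
NDUFA12: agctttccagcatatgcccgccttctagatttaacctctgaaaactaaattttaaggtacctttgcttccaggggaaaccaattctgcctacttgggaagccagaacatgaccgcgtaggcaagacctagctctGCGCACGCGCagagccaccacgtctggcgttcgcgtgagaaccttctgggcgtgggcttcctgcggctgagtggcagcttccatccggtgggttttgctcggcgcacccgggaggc
NDUFA9: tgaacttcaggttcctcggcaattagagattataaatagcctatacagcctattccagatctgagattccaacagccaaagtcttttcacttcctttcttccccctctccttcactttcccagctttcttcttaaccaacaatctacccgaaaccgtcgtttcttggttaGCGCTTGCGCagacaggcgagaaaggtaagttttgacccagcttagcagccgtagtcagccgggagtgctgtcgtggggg

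The motif was found in NDUFA3, NDUFA12 and NDUFA9 and its letters are not in this window of NDUFS4. NDUFV2 and NDUFAB1, which also differed within pairs, had windows without the motif that are not shown, and NDUFB5 had no window. A RefSeq window was at hand for 32 of the 39 members. Of these, 5 held the NRF1 motif in at least 1 window (15.6%), against 6.2% of 27305 genes. The other 2 were NDUFA11 and NDUFB4. The ETS motif CCGGAAG, also searched on both strands, was found in 5 members (15.6%), against 10.2% of these genes. Members with an NRF1 match lay on both sides of 0, from a log2 fold change of −0.26 in NDUFA3 to 0.34 in NDUFA12.

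Library totals ranged from 33002160 to 40628970 counts, so 1 read was worth 0.0238 to 0.0312 CPM, and the 39 members took 0.330% to 0.366% of all counts. GNA13 itself was measured at 820, 886 and 747 CPM in pBabe-Gα13 and at 76.7, 69.4 and 65.4 CPM in pBabe-vector, a log2 fold change of 3.54. One library of each line carries the tag std in its column heading, which for pBabe-vector is replicate 1, and these 2 libraries stood apart in mitochondrial transcripts, as described below. All 9 luminal markers examined, among them KLK2 and KLK3, were above 1 CPM. Of the T cell markers only TRBC1 and TRBC2 were in the table, with a summed level of 0 to 65.9 CPM in pBabe-Gα13 (0 in replicate 2) and 0 to 0.0477 CPM in pBabe-vector. Basal markers summed to 4.5 to 8.26 CPM in pBabe-Gα13 and 2.38 to 2.48 CPM in pBabe-vector. The 2 endothelial markers were not among the genes used here, and stromal markers summed to 17.7 to 25.3 and 12.3 to 23.8 CPM. The part of other cells in the results below was not tested. The RNA came from bulk cultures, in which fewer cells expressing a gene and less of its RNA per cell cannot be told apart.

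Most complex I genes had values slightly below 0 between the lines, by small amounts, and none passed the test without pairing. The log2 fold change (pBabe-Gα13 over pBabe-vector) was below 0 in 30 of 39 members (76.9%), beside 50.3% of all genes and 54% of expressed genes (mean log2 CPM above 1). The median of the members was −0.06, where that over all genes was −0.0013 and that over expressed genes was −0.01. It was −0.02 without replicate 2 and −0.11 without replicate 3 of pBabe-Gα13. In the edgeR fit without pairs (quasi-likelihood test, Benjamini-Hochberg adjusted p under 0.05 over the whole table), 0 members were called, beside 24 genes in the whole table (0.139%). At an unadjusted p under 0.05 there were 5 members (12.8%), beside 8.46% of all genes. DESeq2 and limma-trend also called 0 members. The groups of 3 libraries did not overlap in 6 members. These were NDUFA12 and NDUFV2, higher in pBabe-Gα13 (7.3% of all genes did so), and NDUFS4, NDUFA3, NDUFB5 and NDUFB9, lower (6.79% of all genes).

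Libraries of the same replicate in the 2 lines deviated together, so the lines were also compared within pairs (the 2 std libraries, the 2 libraries of replicate 2 and those of replicate 3). With the pair as a block in the edgeR fit (the paired fit), 7 members were called, 3 higher (9.32% of all genes were called higher) and 4 lower (10.4% of all genes were called lower). The 7 calls make 17.9% of the members, a share close to the 19.7% of all genes and below the 24.3% of expressed genes. A direction shared by all 3 pairs was seen as lower in 16 members (41%, beside 25.3% of all genes and 29.8% of expressed genes). It was seen as higher in 4 members (10.3%, beside 22.6% and 24.4%), NDUFV2, NDUFA12, NDUFA9 and NDUFA7. The difference was largest between the replicate 2 libraries, where 31 of 39 members were lower and the median was −0.14. In the std pair 25 members were lower (median −0.06), and in the replicate 3 pair 21 (median −0.02). Of all 17297 genes, 8697 were lower in the replicate 2 pair, 8736 in the std pair and 8315 in the replicate 3 pair. Of 12778 expressed genes, these counts were 6865, 6801 and 6620.

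**Figure D1:**
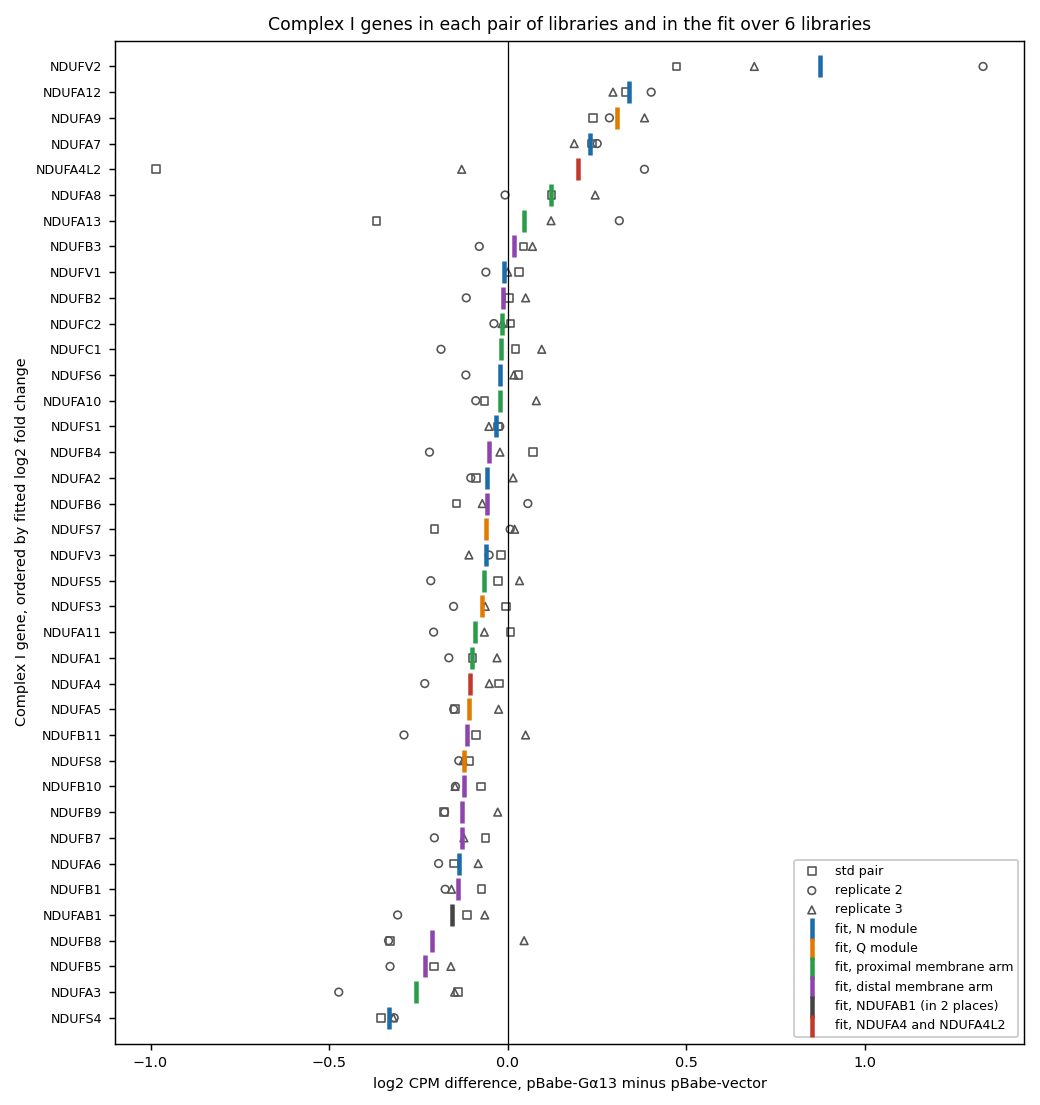
Difference in log2 CPM between pBabe-Gα13 and pBabe-vector for 38 complex I genes (rows, ordered by the fitted value); open symbols are the 3 pairs of libraries and coloured bars the edgeR fit over 6 libraries, coloured by module. Fitted values are below 0 in 30 genes, most circles (replicate 2) lie left of 0, and NDUFA4L2 has its 3 pairs spread from −0.98 to 0.38.

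NDUFS4 was the member with the lowest log2 fold change. It encodes a supernumerary subunit of the N module that is needed for the stability of the NADH-oxidising tip, and its loss is a known cause of Leigh syndrome. Its level was 35.7 (std), 34.6 (replicate 2) and 32.2 CPM (replicate 3) in pBabe-Gα13, and 45.7, 43.1 and 40.2 CPM in pBabe-vector. Every pBabe-Gα13 library lay below every pBabe-vector library, and in both lines the std library was highest and replicate 3 lowest. The means were 34.2 ± 1.8 and 43 ± 2.73 CPM (SD, n = 3 each). This is a log2 fold change of −0.33 with an SE of 0.10 (edgeR, adjusted p = 0.376 unpaired and 1.40e-04 paired). The exact two-sided permutation test gave p = 0.10, the smallest that 3 against 3 libraries allow. In the paired fit, NDUFS4 kept its call when any pair was left out (highest edgeR adjusted p 0.00136), with the chromosome centred (3.30e-04) and with a correction for GC content and length (0.00107).

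NDUFB5 and NDUFA3 were the other members that were lower in all pairs without overlap and called with the block. NDUFB5 is a subunit of the distal membrane arm. It was measured at 73.4, 66.4 and 72.3 CPM in the std, replicate 2 and replicate 3 libraries of pBabe-Gα13, and at 84.7, 83.5 and 80.7 CPM in those of pBabe-vector. The fitted log2 fold change, −0.23 with an SE of 0.09, had an edgeR adjusted p of 0.502 unpaired and 0.00216 paired, and the paired call was kept when any pair was left out. NDUFA3, a small membrane-spanning subunit of the proximal arm, was at 53.2, 49.4 and 54.4 CPM in pBabe-Gα13 and at 58.6, 68.6 and 60.3 CPM in pBabe-vector. Its difference was largest in the replicate 2 pair (−0.47, against −0.14 and −0.15), and without that pair it was not called (edgeR, paired adjusted p = 0.160, against 0.00321 with all pairs and 0.524 unpaired). NDUFA3 has 5 named pseudogenes in Gencode 44, with which its reads can be shared.

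NDUFAB1, the mitochondrial acyl carrier protein, which sits at more than 1 place in complex I and also serves fatty acid synthesis, was at 154, 132 and 169 CPM in pBabe-Gα13 and at 166, 164 and 177 CPM in pBabe-vector. The groups overlapped, because replicate 3 was the highest library in both lines. It was lower in all 3 pairs, at −0.16 on the log2 scale (edgeR, adjusted p = 0.847 unpaired and 0.0368 paired). The call was lost without the replicate 2 pair (0.388) and with the chromosome centred (0.123). NDUFB9, also of the distal arm, did not overlap between the groups but was not called (log2 fold change −0.13, paired adjusted p = 0.0947 in edgeR).

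The members higher with the block were NDUFA12, NDUFA9 and NDUFV2. NDUFA12 sits where the N and Q modules meet. Its level was 46.1, 40.5 and 48.4 CPM in pBabe-Gα13 and 36.6, 30.7 and 39.4 CPM in pBabe-vector. All pBabe-Gα13 libraries lay above all pBabe-vector libraries, with replicate 2 lowest in each line. The fit gave a log2 fold change of 0.34 with an SE of 0.13 (edgeR, adjusted p = 0.500 unpaired and 9.05e-05 paired). NDUFA9, a subunit of the Q module that binds NADPH, was at 17.6, 15 and 19.8 CPM in pBabe-Gα13 and at 14.9, 12.3 and 15.1 CPM in pBabe-vector. The groups overlapped by the replicate 2 library of pBabe-Gα13. For NDUFA9 the log2 fold change was 0.31 (edgeR, adjusted p = 0.687 unpaired, 0.00949 paired and 0.104 paired without replicate 3).

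NDUFA12 and NDUFA9 both lie on chromosome 12, where the median log2 fold change of 580 expressed genes was 0.29. Relative to the median of the other genes of the chromosome, NDUFA12 was at 0.05 and NDUFA9 at 0.01. After each chromosome had been centred, neither was called in the paired fit (edgeR, adjusted p = 0.601 and 0.940), and NDUFA12 went from 0.34 to 0.06. NDUFA4L2, the remaining member there, is described below.

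The other chromosomes with members deviated less. Next to chromosome 12 stood chromosome 9 (median 0.12), which holds NDUFA8 and NDUFB6, chromosome 2 (0.07), which holds NDUFA10, NDUFB3 and NDUFS1, and chromosome 22 (−0.15), which holds NDUFA6. No member lies on chromosome 20, which had a median of −0.21. NDUFA6, of the N module, had a log2 fold change of −0.14 and was at 0.02 relative to chromosome 22. NDUFA8, of the proximal arm, had 0.12 and was at 0.0026 relative to chromosome 9, where NDUFB6 was at −0.18. After centring, NDUFB6 was called lower with the block (edgeR adjusted p = 0.0378), although its own log2 fold change was −0.06 and it was higher in the replicate 2 pair.

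Over the 18 chromosomes that hold members, 26 of 39 members lay below the median of their chromosome, by −0.05 at the median. Across members, log2 fold change and chromosome median had a Pearson r of 0.469 (Spearman rho 0.480, 39 genes that share the same 6 libraries), and without the 3 members on chromosome 12 the r was 0.201. With the block and centring together, 5 members were called. NDUFV2 was the 1 that was higher (6.61% of all genes were called higher), and NDUFS4, NDUFA3, NDUFB5 and NDUFB6 were lower (7.5% of all genes were called lower).

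**Figure D2:**
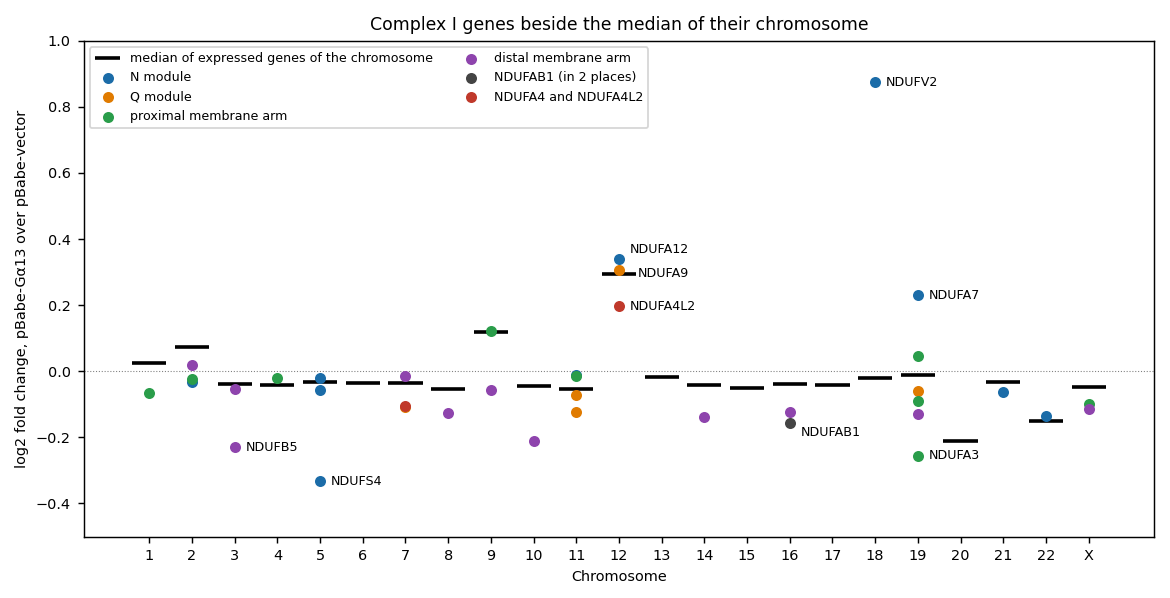
Fitted log2 fold change of 38 complex I genes (points, coloured by module) by chromosome, with the median of the expressed genes of that chromosome as a black bar. NDUFA12 and NDUFA9 sit close to the bar of chromosome 12 at 0.29, whereas NDUFV2, NDUFS4, NDUFA3 and NDUFB5 lie away from theirs.

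NDUFV2 encodes a core subunit of the N module with an iron-sulfur cluster, and it had the highest log2 fold change of all members. It was at 2.01, 2.91 and 1.74 CPM in pBabe-Gα13 and at 1.43, 1.12 and 1.06 CPM in pBabe-vector, which rests on 34 to 99 reads per library. The groups did not overlap and the fit gave 0.87 on the log2 scale with an SE of 0.27 (edgeR, adjusted p = 0.398 unpaired, 0.00729 paired and 0.149 paired without replicate 2). This level was low for a core subunit. In Gencode 44, 90.0% of its canonical transcript is shared with another gene on the same strand, ENSG00000265257. The authors counted reads on another Gencode release, and whether that release holds the overlapping gene was not checked. The processed pseudogene NDUFV2P1 on chromosome 19 had 123 to 167 reads per library, more than NDUFV2 in every library, and its log2 fold change was −0.12 (edgeR adjusted p = 0.946). How much of the NDUFV2 signal, if any, such overlap took away was not tested, and its value is uncertain.

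The other 4 such members shared over 50% of their canonical transcript with an overlapping gene on the same strand. They are NDUFA13 (83.9%), NDUFA7 (77.9%), NDUFB8 (72.0%) and NDUFA11 (68.2%), with log2 fold changes of 0.05, 0.23, −0.21 and −0.09, none of them called. On the scale of CPM per kb of transcript in pBabe-vector, NDUFV2 ranked lowest of 39 at 1.4, with NDUFA7 at 2.43, NDUFB8 at 10.7 and NDUFA13 at 14.3 among the 5 lowest and NDUFA11 at 36.9. NDUFA9 at 1.69 was the fifth of these, with a canonical transcript of 8356 bases. Per kb of coding length the same 4 overlapped genes were among the 5 lowest. Without the 5 overlapped genes and NDUFA4L2, 28 of 33 members were lower, with a median of −0.06.

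The highest level per kb in pBabe-vector was that of NDUFB4, 547 ± 51 CPM per kb (SD, n = 3), followed by NDUFS5 with 387 and NDUFB10 with 319. NDUFB4 and NDUFS5 had log2 fold changes of −0.05 and −0.07 and were not called. NDUFB4 (12), NDUFA5 (12) and NDUFS5 (6) have the most named pseudogenes, and counts of these genes can be shared with them. Core subunits of the matrix arm ranged from 1.4 (NDUFV2) and 18.5 (NDUFS1) to 171 CPM per kb (NDUFS8). The canonical transcript of NDUFS1 has 11660 bases, and per kb of coding length NDUFS1 was at 99 and NDUFS8 at 200. The spread between genes was far larger than that between lines.

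**Figure D3:**
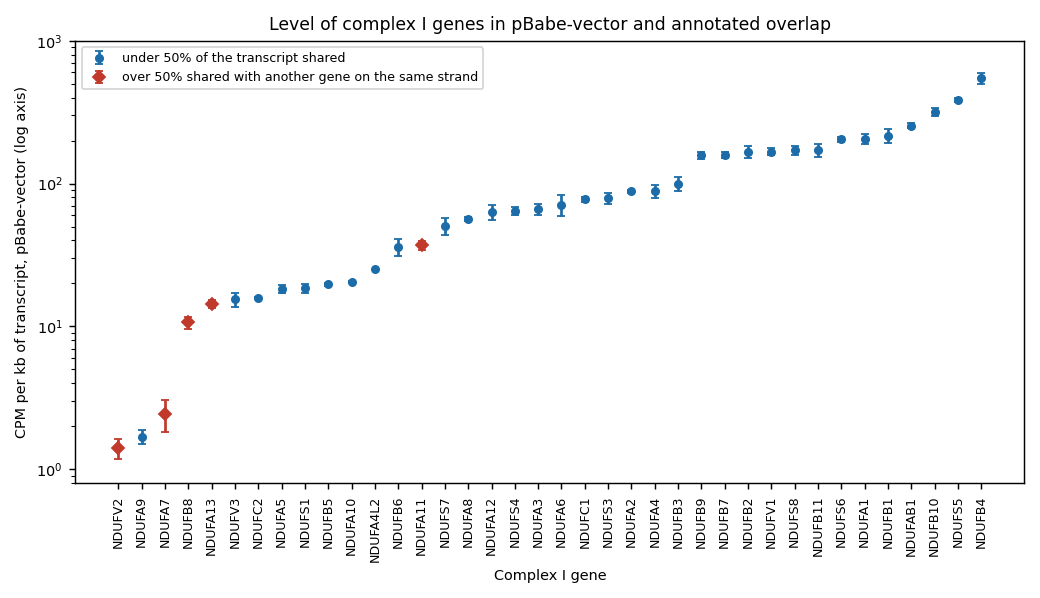
Level of 38 complex I genes in pBabe-vector as CPM per kb of canonical transcript (log axis, mean with SD over 3 libraries, no SD for NDUFA4L2), ordered by level; red diamonds are the 5 genes that share over 50% of the transcript with another gene on the same strand. Diamonds take 4 of the 5 lowest places, and NDUFB4 is highest at 547.

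The core subunits of the matrix arm were close to 0. Apart from NDUFV2, the 5 described here had log2 fold changes from −0.12 to −0.01. NDUFV1, which binds the flavin that takes the electrons of NADH, was at 259 ± 11.3 CPM in pBabe-Gα13 and 261 ± 13.6 CPM in pBabe-vector (SD, n = 3 each), and its log2 fold change was −0.01. NDUFS1, the largest iron-sulfur subunit, had −0.03, and NDUFS3, which carries no cluster, −0.07. NDUFS7, which carries the last cluster before ubiquinone, had −0.06, with 51.3% of its transcript overlapped by antisense genes. NDUFS8 had the lowest of these 5 values at −0.12 (edgeR, adjusted p = 0.877 unpaired and 0.0974 paired). It was lower in all 3 pairs, at 116, 108 and 124 CPM against 124, 119 and 135 CPM. None of the 5 was called in either fit.

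By module, the distal membrane arm was lowest. Of its 11 members, 10 were lower (90.9%, beside 54% of expressed genes), with a median of −0.12 and values from −0.23 to 0.02. With the block, 1 was called, NDUFB5 (9.09%, beside 10.4% of all genes called lower). The median of the distal arm was −0.09 with chromosome centring and −0.07 with block and GC and length correction. Among its members the highest was NDUFB3 at 0.02, and NDUFB8 (−0.21) and NDUFB1 (−0.14) stood next to NDUFB5. NDUFB10 was at 197, 186 and 210 CPM in pBabe-Gα13 and at 207, 206 and 232 CPM in pBabe-vector. NDUFB7 was at 78.4, 72.1 and 82.6 CPM against 81.8, 83.1 and 89.9 CPM. NDUFB1 was at 57.3, 61 and 68 CPM against 60.3, 68.8 and 75.9 CPM. These 3 subunits were lower in all 3 pairs, the groups overlapped, and none was called in either fit. In the Q module 4 of 6 members were lower (median −0.07), with NDUFA9 (0.31) and NDUFA5 (−0.11) as examples. In the N module 7 of 10 were lower (median −0.03), and it held both the lowest member, NDUFS4, and the highest, NDUFV2. In the proximal membrane arm 7 of 9 were lower (median −0.02), with NDUFA3 at −0.26 and NDUFA8 at 0.12. The 30 supernumerary subunits had a median of −0.06, with 24 lower and 6 called with the block (20%, beside 19.7% of all genes). The members not yet named (NDUFA1, NDUFA2, NDUFA10, NDUFB2, NDUFB11, NDUFC1, NDUFC2, NDUFS6 and NDUFV3) had values from −0.11 in NDUFB11 to −0.01 in NDUFB2, and none was called. Of these, NDUFA1 (−0.10) is a small membrane protein needed for assembly and NDUFS6 (−0.02) binds zinc and is needed to attach the N module. Differences between modules were not tested.

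Levels of the members also differed between replicates of 1 line. Between replicate 3 and replicate 2, the median of the members was 0.18 on the log2 scale in pBabe-Gα13 (31 of 39 higher in replicate 3) and 0.03 in pBabe-vector (20 of 39). The median size of this difference, without sign, was 0.20 and 0.15, below the 0.25 of expressed genes in each line. Within pairs, the same measure of the difference between the lines was 0.09 (std), 0.18 (replicate 2) and 0.07 (replicate 3). Across members the difference in one line followed that in the other, with a Pearson r of 0.703 without NDUFA4L2 (Spearman rho 0.837), beside a Pearson r of 0.874 over expressed genes. NDUFA6 shows it well. It was at 68, 55.9 and 85 CPM in pBabe-Gα13 and at 75.5, 63.9 and 90 CPM in pBabe-vector, lowest in replicate 2 and highest in replicate 3 of both lines and lower in pBabe-Gα13 in each pair, with a fitted value of −0.14 (edgeR, adjusted p = 0.958 unpaired and 0.0553 paired).

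NDUFA4L2 varied most between cultures. It encodes a protein known to be induced by hypoxia through HIF and linked to lower respiration. Its level was 6.4 (std), 73.3 (replicate 2) and 2.65 CPM (replicate 3) in pBabe-Gα13, and 12.7, 56.2 and 2.9 CPM in pBabe-vector. In both lines replicate 2 was highest and replicate 3 lowest, 27.7-fold apart within pBabe-Gα13. For no other member did the highest library exceed the lowest by more than 2.75-fold. Between the lines, NDUFA4L2 stood at 0.20 on the log2 scale with an SE of 1.29 in the unpaired fit (edgeR, adjusted p = 1) and at −0.14 in the paired fit (adjusted p = 0.588). The sign depended on the libraries used, since the value was −2.4 without replicate 2 of pBabe-Gα13 and 1.80 without replicate 2 of pBabe-vector. With the block, it was called higher without the std pair (0.30, edgeR adjusted p = 0.0122) and lower without the replicate 2 pair (−0.68, 3.25e-04). NDUFA4 did not share this pattern. It was at 155, 165 and 183 CPM in pBabe-Gα13 and 158, 194 and 190 CPM in pBabe-vector, at −0.11 on the log2 scale between the lines (edgeR, adjusted p = 0.928 unpaired).

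**Figure D4:**
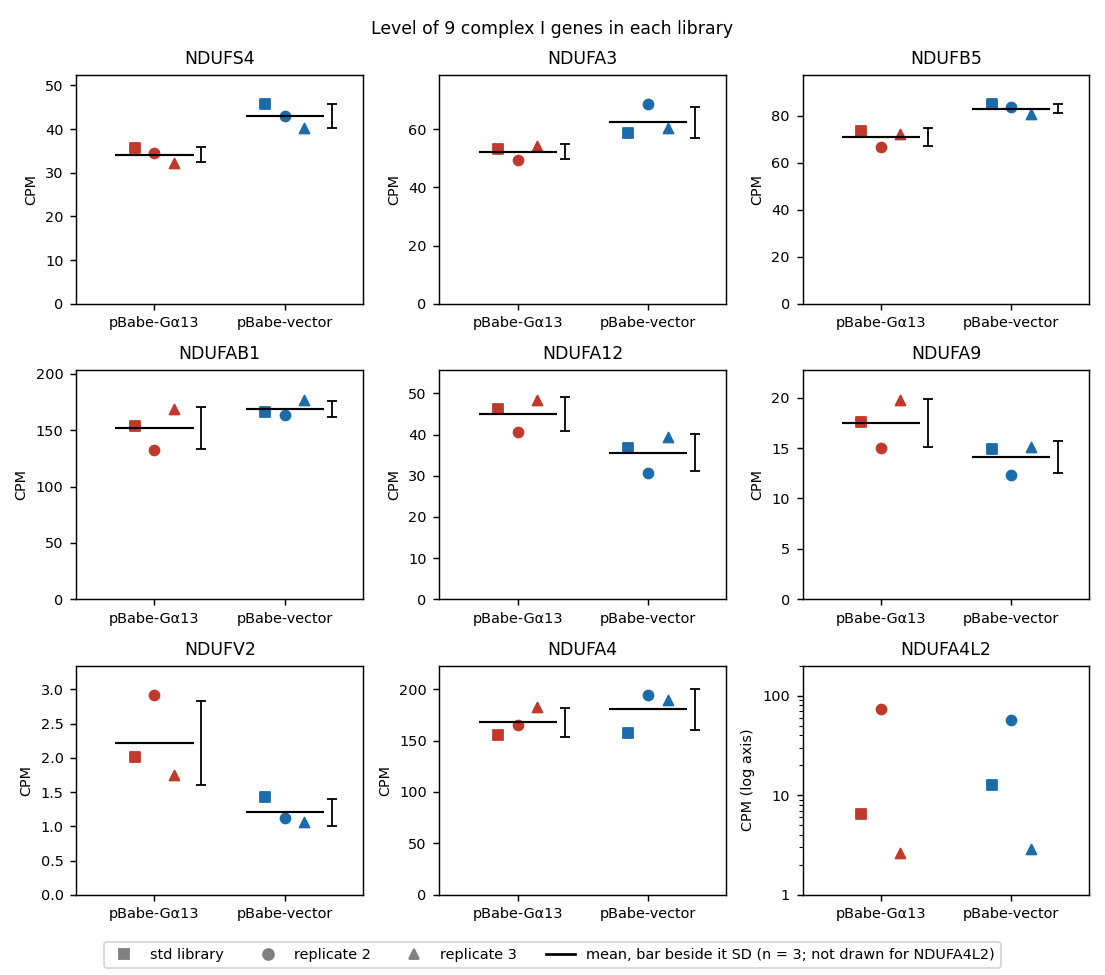
CPM of 9 complex I genes in each library (red pBabe-Gα13, blue pBabe-vector; squares std, circles replicate 2, triangles replicate 3), with mean and SD; axes start at 0 except for NDUFA4L2, which has a log axis. NDUFS4, NDUFA3, NDUFB5, NDUFA12 and NDUFV2 separate the lines, whereas NDUFA4L2 separates the replicates, with replicate 2 above 50 CPM in both lines.

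The 7 subunits encoded by mtDNA, which form the proton-pumping core of the membrane arm, were called in neither fit but stood apart in the std libraries of both lines. MT-ND1 to MT-ND6 and MT-ND4L together took 0.604% of counts in the std library of pBabe-Gα13 and 0.709% in that of pBabe-vector, against 1.81% to 2.36% in the other 4 libraries. The ratio of their counts to those of the 37 nuclear subunits was 1.75 and 2.04 in the std libraries and 5.59 to 6.93 in the others. MT-ND4, the most abundant, was at 2311, 7850 and 9526 CPM in pBabe-Gα13 and 2787, 7350 and 9104 CPM in pBabe-vector. The median log2 fold change of the 7 was 0.02. In the std pair all 7 were lower (median −0.27), in the replicate 2 pair none (median 0.09), and in the replicate 3 pair 1. The low share in the std libraries was not particular to these 7 subunits. All mtDNA transcripts together took 2.09% (pBabe-Gα13) and 2.54% (pBabe-vector) of counts in the std libraries, against 6.40% to 7.20% in the other 4 libraries. The nuclear members showed no such step, at 0.362% and 0.366% of counts in the std libraries and 0.330% to 0.360% in the others.

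**Figure D5:**
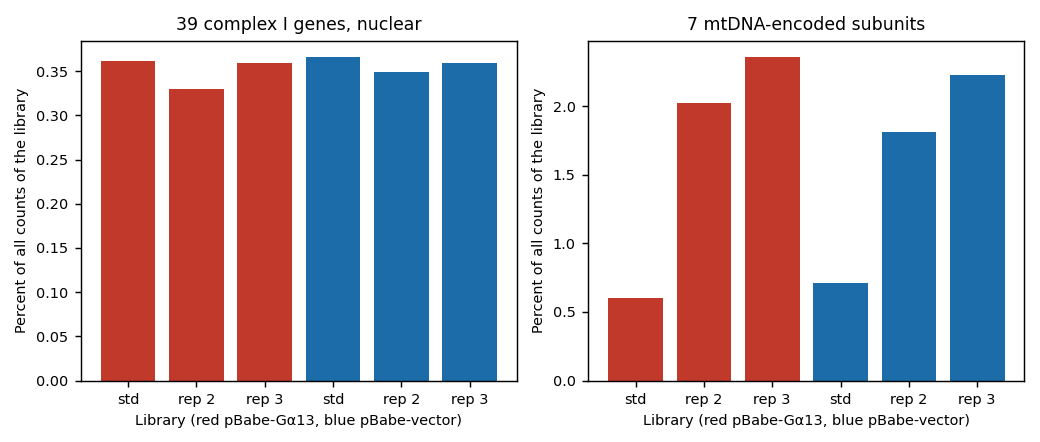
Percent of all counts of a library taken by the 39 nuclear complex I genes (left) and by the 7 mtDNA-encoded subunits (right) in each of the 6 libraries. The nuclear genes stay between 0.330% and 0.366%, and the mtDNA-encoded genes are at 0.604% and 0.709% in the std libraries and at 1.81% or more in the others.

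Genes that build or accompany complex I were also mostly below 0. Of 23 assembly factors, 18 were below 0 (median −0.08), 0 were called by edgeR without the block or by DESeq2, and with the block 3 were called (13%, beside 19.7% of all genes). TMEM126A (log2 fold change −0.23, edgeR adjusted p = 0.0162) and NDUFAF2 (−0.21, 0.0279) were lower and DMAC1, listed as TMEM261, was higher (0.18, 0.0181). TMEM126A and DMAC1 help to build the distal membrane arm, and NDUFAF2 acts late, when the N module is added. DMAC1 lies on chromosome 9, relative to which no factor was called higher with the block. TMEM126A was not called with the block after centring (edgeR, adjusted p = 0.0848), and neither it nor NDUFAF2 was called with the GC and length correction (0.0571 and 0.163). For complexes II to V, 43 nuclear genes were taken by the start of their symbol, 41 of them with a mean of at least 1 CPM. Of the 43, 35 were below 0 (median −0.08) and 0 were called by edgeR without the block. At an unadjusted p under 0.05 there were 5 (11.6%, beside 8.46% of all genes). DESeq2 called 2, COX7B2 (adjusted p = 0.0112) and ATP5E (0.0434), both lower, beside 280 of all 17297 genes. With the block, edgeR called 3 higher (6.98%, beside 9.32% of all genes). It called 9 lower (20.9%, beside 10.4% of all genes and 13.2% of expressed genes). With the block and chromosome centring, 5 were called lower (7.5% of all genes) and 0 higher (6.61% of all genes). With the block and the GC and length correction, 6 were called lower and 4 higher (1707 and 1592 of all 17297 genes). The smallest p had ATP5E, a subunit of ATP synthase on chromosome 20 (−0.41, edgeR adjusted p = 1.61e-06 with the block), COX7B2, a variant of a complex IV subunit (−1.1, 2.59e-05) and ATP5G2, of ATP synthase on chromosome 12 (0.33, 3.70e-05). The median of chromosome 20 was −0.21, and with block and centring ATP5E was at −0.21 and still called (edgeR adjusted p = 0.00519). The 3 higher ones, ATP5G2, ATP5B and COX6A1, all lie on chromosome 12, as do NDUFA12 and NDUFA9, and none was called higher after centring.

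Among 9 transcriptional regulators in the table, TFAM, which packages and transcribes mtDNA, was called lower with the block (log2 fold change −0.22, edgeR adjusted p = 0.00223). This 1 call makes 11.1% of the regulators, a share close to the 10.4% of all genes called lower. TFAM was at 143, 124 and 150 CPM in pBabe-Gα13 and 165, 151 and 170 CPM in pBabe-vector, with no overlap (6.79% of all genes were lower without overlap). NRF1 was at 17.8 ± 1.04 CPM in pBabe-Gα13 and 16.4 ± 1.85 CPM in pBabe-vector (SD, n = 3 each), higher in all 3 pairs and not called (log2 fold change 0.12, edgeR, adjusted p = 0.929 unpaired and 0.345 paired). GABPA, an ETS factor, had 0.01 and ESRRA, a nuclear receptor of mitochondrial genes, −0.09, and neither was called.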

How the data were processed

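RNA of 6 LNCaP cultures was sequenced as paired-end reads. The authors assessed read quality with FastQC 0.11.7, mapped reads with STAR to Gencode and counted them per gene with featureCounts; the values they deposited are whole-number read counts for 17297 gene symbols, although the table is named for CPM, and no normalization had been applied. The version of STAR, the use of strand and the filter behind the genes listed are not given in the sources used here. The column of 1 pBabe-Gα13 library carries the tag std and the number 2, so that library is tied to its line only. All 6 columns were used and 0 were left out.

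TMM-normalized counts of the whole table went into the quasi-likelihood test of edgeR 4.0.16, run in R 4.3.3, with the line as the only term and Benjamini-Hochberg adjustment. CPM is TMM-normalized, log2 CPM has a prior count of 2, and errors are SD over 3 libraries. Pairs come from the replicate numbers and the tag in the column headings. Deviations from the group means were correlated in the std, replicate 2 and replicate 3 pairs (12778 genes, r = 0.659, 0.807 and 0.888, across genes, which are not independent replicates), and pairs were therefore used as a block. Expressed genes have a mean log2 CPM over 1. Chromosome centring entered the fit as offsets. Of the symbols, 83.3% (14402) were matched to Gencode 44 or by RefSeq synonyms; coordinates and transcripts are of GRCh38.

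The members, lists and tests were chosen with earlier results of these data known. Genes named are those called in either fit, the 3 highest and 3 lowest, core subunits (results for 1 member and 1 marker are not reported here by name), NDUFA4 and NDUFA4L2, examples per module or chromosome, and at most 3 per other list; NDUFB9, COX6A1, ATP5B, NRF1, GABPA and ESRRA were added after their values were seen. Assembly factors under older symbols were C17orf89, TMEM261 and ATP5SL. Alternatives were DESeq2 1.42.0, limma-trend (3.58.1), RLE factors, the newer quasi-likelihood method, a filter on low counts, each library or pair left out, chromosome centring, a GC and length correction, and coding length for levels per kb, the last chosen after seeing the data. Figures were drawn with matplotlib 3.10.9 (Python 3.11.15). Read counts without molecular identifiers carry more than counting error.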

Additional observations from a re-analysis of the deposited data

How the results depend on the processing

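The count of complex I genes called depended on the pairing. It was 7 with the replicate block, 5 with block and chromosome centring, 6 with block and GC and length correction, and 8, 5 and 6 in paired fits that left out the std, replicate 2 or replicate 3 libraries; without the block it was 0 under every alternative run. The count of all genes called was 24, and 3407 with the replicate block, 280 with DESeq2, 5 with limma-trend, 11 with the filter on low counts, 2440 with block and centring, 3299 with block and GC correction, 3266, 2550 and 2250 with the block and without 1 pair, and 2 to 15 with 1 library left out. The median of the members stayed between −0.11 and −0.02 in all of these.

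Of the named genes, NDUFA4L2 changed sign most: −0.14 with the block, −0.24 with limma-trend, −0.074 with centring, −0.42 with block and centring, −0.076 with block and GC correction, and −0.68 and −0.12 with the block and without the replicate 2 or replicate 3 pair. NDUFV1 went to 0.043 with centring, with or without the block, to 0.020 with block and GC correction and to 0.011 with the block and without the replicate 2 pair, and NDUFS7 to 0.017 in the paired fit that left out the std libraries. With 1 library left out, ranges that crossed 0 were −0.051 to 0.021 (NDUFV1), −0.17 to 0.018 (NDUFS7), −0.085 to 0.027 (NDUFS1), −0.15 to 0.0047 (NDUFS3) and −2.4 to 1.80 (NDUFA4L2). The cause was not tested. NDUFV2 has no value under the filter on low counts. At 34 to 99 reads, NDUFV2 is the member most limited by depth, followed by NDUFA7.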

Other observations

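Other genes known to be induced by hypoxia were examined beside NDUFA4L2, from a list of 12 written after the values of NDUFA4L2 had been seen. Replicate 2 was the highest library for 10 of the 12 in pBabe-Gα13, for 8 in pBabe-vector and for 8 in both, beside 33.5%, 31.6% and 22.1% of expressed genes. NDRG1 was at 107 (std), 203 (replicate 2) and 76.7 CPM (replicate 3) in pBabe-Gα13 and at 114, 152 and 80.2 CPM in pBabe-vector. BNIP3, a mitophagy receptor, was at 242, 566 and 194 CPM in pBabe-Gα13 and at 296, 491 and 213 CPM in pBabe-vector. PFKFB4, a regulator of glycolysis, was at 13.7, 32 and 10.9 CPM in pBabe-Gα13 and at 12.9, 24.3 and 10.3 CPM in pBabe-vector. For these 3 genes, as for NDUFA4L2, replicate 3 was lowest in both lines. LDHA did not share the order, at 715, 915 and 944 CPM in pBabe-Gα13 and 799, 934 and 936 CPM in pBabe-vector. Nor did EGLN3, at 12.8, 15 and 16.9 CPM in pBabe-Gα13 and 11.7, 14.9 and 18.1 CPM in pBabe-vector. ADM, ANKRD37, SLC2A1 and P4HA1 also departed from this order in pBabe-Gα13 or pBabe-vector. The ratio of replicate 2 to replicate 3 had a median of 1.81 over the 12 genes in pBabe-Gα13 and 1.46 in pBabe-vector, against 27.7 and 19.4 for NDUFA4L2. Between the lines, KDM3A (log2 fold change 0.39, edgeR, adjusted p = 0.839 unpaired and 0.00457 paired) and PDK1 (0.16, adjusted p = 0.930 unpaired and 0.0283 paired) were called higher with the block. The other 10 of the 12 were not called, and of all genes 9.32% were called higher with the block. After centring of each chromosome with the block, PDK1 was at 0.09 and not called (edgeR, adjusted p = 0.308), nor was it with the GC and length correction (0.0590), and KDM3A was called in both (0.0459 and 0.0124).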
